A study of Rattus norvegicus with 18 samples.

Results

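The genes described are 8 parts of the interleukin-6 (IL-6) receptor pathway: the receptor subunits Il6r, Il6st, Lifr and Osmr, the kinases Jak1 and Jak2, the transcription factor Stat3 and its inhibitor Socs3. They were picked by name, with earlier results of the same arrays known, and every probe set that the platform annotation gives to 1 of them alone was taken. That made 13 of the 31042 probe sets that are not controls, for 7 of the 8 genes, against 14217 genes named on the array in all. Osmr, the oncostatin M receptor subunit, had no probe set under its symbol or gene ID, so no value is given for it.

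Whole-kidney RNA came from 9 S.SHR(2) and 9 Dahl S rats, 1 Affymetrix Rat Genome 230 2.0 array each. S.SHR(2) is a congenic strain: per the labels it was bred from SS/Jr and SHR/NHsd, and its name places the introgressed segment of the spontaneously hypertensive rat (SHR) on chromosome 2, with bounds that the labels do not give. Dahl S (SS/Jr) is the salt-sensitive parent whose genome S.SHR(2) carries outside that segment, and the labels call S.SHR(2) protected in the kidney. The design text speaks of male rats of 3 ages. The labels give an age, sex and diet for only 2 rats, both Dahl S males on 0.3% NaCl, 1 of 4 weeks and 1 of 12 weeks. The other 16 have none, so no rat was placed in an age group.

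In accession order the arrays form 3 runs of 6, each with 3 S.SHR(2) and 3 Dahl S rats, called here the first, the second and the third deposit block. The rat labelled 4 weeks lies in the first block and the rat labelled 12 weeks in the second. A block is used only as a batch of deposit. Age, handling and any other trait shared by a block cannot be told apart. Rats were treated as replicates, and in whole kidney fewer cells of a type and less RNA per cell cannot be told apart either.

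IL-6 binds its receptor Il6r, on the cell or shed from it, and the pair recruits Il6st (gp130), the subunit that carries the signal for the whole IL-6 cytokine family. Lifr and Osmr pair with gp130 for leukaemia inhibitory factor, oncostatin M and related ligands. Jak1 and Jak2, tyrosine kinases held on the receptor tails, phosphorylate Stat3, which enters the nucleus and turns on acute phase genes and Socs3, and Socs3 protein then blocks gp130 and the kinases. In kidney the pathway is known for acute phase and injury responses of tubule and immune cells.

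Il6r, Il6st, Lifr and Osmr lie on chromosome 2, the chromosome named in the congenic strain, while Jak1 lies on chromosome 5, Jak2 on chromosome 1, and Stat3 and Socs3 on chromosome 10. The window around the annotated start of Il6r is shown because Il6r is the member with the largest strain difference. It is taken from RefSeq on GRCr8 (chr2:177645160-177645459, minus strand), an assembly of neither strain studied here. The 250 bases before the start are in lower case and the 50 bases from the start on are in capitals.
Il6r: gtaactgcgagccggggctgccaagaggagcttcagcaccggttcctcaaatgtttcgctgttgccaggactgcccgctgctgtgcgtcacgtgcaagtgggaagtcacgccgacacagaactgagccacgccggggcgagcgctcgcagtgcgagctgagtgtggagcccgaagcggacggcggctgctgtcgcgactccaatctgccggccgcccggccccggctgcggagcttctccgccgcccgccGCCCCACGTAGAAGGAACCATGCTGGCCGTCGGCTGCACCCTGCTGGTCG
The STAT binding motif TTCNNNGAA, which reads the same on both strands, had no match in this window, nor in those of the other 6 members with an entry (Il6st, Lifr, Osmr, Jak2, Stat3 and Socs3). It occurred in 2970 of the 33469 promoter windows of the same length in the table (8.87%). The stricter form TTCCNGGAA, whose matches are all matches of the first, occurred in 424 (1.27%) and in none of the 7 members' windows. These counts describe the letters in the windows and nothing beyond them. Whether each window covers the promoter of its gene was not checked.

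The levels are the intensities the authors deposited, in array units, and changes are log2 differences of normalised values, S.SHR(2) minus Dahl S, with their standard error (SE). A probe set was called where the adjusted p of limma, after Benjamini-Hochberg adjustment across all 18625 tested probe sets, was under 0.05. All 13 probe sets of the pathway passed the filter on dim probe sets, Socs3 narrowly, with a mean log2 level of 5.53 against the limit of 5.48. Of the 8 kidney identity genes tested, 0 were called between the strains (limma, 0 also at an unadjusted p under 0.05), with a median change of 0.004. Their summed intensity was 20424 to 26737 in S.SHR(2) and 18700.6 to 26946.7 in Dahl S. It was lowest in the third block, 20424 to 21635.2 in S.SHR(2) and 18700.6 to 21263.1 in Dahl S. In the second block it was 24887 to 26737 in S.SHR(2) and 23449.9 to 26946.7 in Dahl S. Of 8 liver, fat and adrenal markers with a probe set, 4 were bright enough to test and none was called, with sums of 194.8 to 334.5 in S.SHR(2) and 172.4 to 358.7 in Dahl S. The ratio of the 3′ to the 5′ GAPDH control probe set ran from 1.27 to 2.51 in S.SHR(2) and from 1.19 to 2.04 in Dahl S, and that of beta-actin from 2.27 to 6.83 in S.SHR(2) and from 2.22 to 5.89 in Dahl S.

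Il6r was measured by 1 dim probe set, 1386987_at, with no other to set beside it. It was the member with the largest strain difference, lower in S.SHR(2). Its intensity in S.SHR(2) was 45.7, 29.7 and 31 in the first block, 21.9, 30.3 and 35.8 in the second, and 34.9, 44.8 and 37.8 in the third. In Dahl S it was 41.2, 53.9 and 55.6 in the first block, 63.9, 75.6 and 57.6 in the second, and 102.1, 65.4 and 82.9 in the third. The strains overlapped where S.SHR(2) replicate 1 of the first block, at 45.7, and replicate 8 of the third, at 44.8, lay above Dahl S replicate 1 of the first block, at 41.2. So 7 of 9 S.SHR(2) rats lay below the lowest Dahl S rat, and 8 of 9 Dahl S rats lay above the highest S.SHR(2) rat. All 9 S.SHR(2) rats were below the Dahl S median of 63.9.

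Il6r averaged 34.7 ± 7.55 in S.SHR(2) and 66.5 ± 18.1 in Dahl S (SD, n = 9 each). The log2 change was -0.65 ± 0.138 (SE), which is 0.639-fold on the log2(intensity + 16) scale, a scale that understates the change of a gene as dim as this. Without a covariate the change missed the threshold, with an adjusted p of 0.0729 by limma, at rank 33 of 18625 by p. With the deposit block as a term the same change had an SE of 0.113 and an adjusted p of 0.00425, and Il6r was called, at rank 36. So 0 of 13 probe sets of the pathway were called without the block term, where 0.123% of all probe sets were. With it 1 of 13 was called, and lower, where 0.494% of all were called in either direction and 0.317% lower. At an unadjusted p under 0.05, 3 of 13 passed without the block term (4.02% of all probe sets) and 4 of 13 with it (9.27%), each of them lower. In both fits they belong to Il6r, Il6st and Stat3 only. The 9 rats of either strain overlapped in every member, while 0.113% of all probe sets kept the strains fully apart.

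Within blocks, the log2 change of Il6r was -0.38 in the first, -0.87 in the second and -0.69 in the third, each with an SE of 0.189. None passed the threshold on 3 rats against 3 (adjusted p = 0.497, 0.110 and 0.138 by limma). No member was called within a block, where 0.161%, 0.123% and 0.338% of all probe sets were called in the first, the second and the third. At an unadjusted p under 0.05, 1, 1 and 4 of 13 passed, against 10.4%, 3.16% and 10.4% of all probe sets. The 4 in the third block belong to Il6r and Il6st only, so they are not 4 separate genes. The strains' Il6r ranges did not overlap in the second and the third block. Separate ranges were seen in 9.27% of all probe sets in the second block and 20.4% in the third. The difference between the changes in 2 blocks did not pass the threshold for any pair of blocks (adjusted p of the limma interaction 0.836 between the second and the first, 0.722 between the third and the first, and 0.999 between the third and the second). No other member passed in these 3 interactions either, which called 0%, 0.0107% and 0.00537% of all probe sets. At an unadjusted p under 0.05, 1, 1 and 0 of 13 passed, against 5.59%, 9.26% and 4.34%.

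The Il6r mean of S.SHR(2) was 35.5 ± 8.89, 29.3 ± 7.0 and 39.2 ± 5.09 in the first, the second and the third block, and that of Dahl S was 50.2 ± 7.87, 65.7 ± 9.13 and 83.5 ± 18.4 (SD, n = 3 each). The S.SHR(2) means moved by less than the distance between the strains in the second or the third block. Between the third and the first block the log2 difference was 0.27 ± 0.189 in S.SHR(2) and 0.59 ± 0.189 in Dahl S, and as given above these did not differ past the threshold. The plot of each rat's Il6r intensity by block shows the strains apart in every block but the first.

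**Figure D1:**
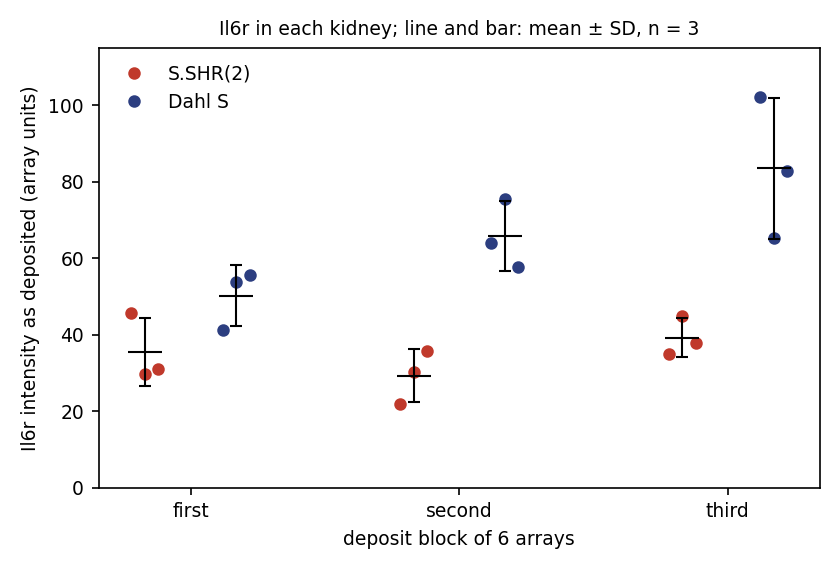
Il6r intensity as deposited (vertical axis, array units) in each kidney, by deposit block (horizontal axis), with S.SHR(2) left of Dahl S in each block; lines and bars are the mean and SD of 3 rats. The S.SHR(2) rats lie between 21.9 and 45.7 throughout, and the Dahl S means are 50.2, 65.7 and 83.5 in the first, the second and the third block.

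Along chromosome 2, Il6r was the 398th of 691 tested genes in the gene order of GRCr8. With the block term 35 of these 691 genes were called, and they lay between the 145th and the 605th place, against 14 of 9759 tested genes on the other chromosomes. None of the 6 tested genes on either side of Il6r was called in either fit. They were Pygo2, Pbxip1, Pmvk, Adar, Ube2q1 and She on one side and Atp8b2, Ubap2l, Ns5atp4, Tpm3, Rab13 and Jtb on the other. Their changes ran from -0.23 ± 0.071 for Tpm3, a tropomyosin (adjusted p = 0.641 by limma, 0.172 with the block term), to 0.11 ± 0.117 for Ubap2l.

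The receptor partners on the same chromosome lay at the 94th place (Il6st) and the 127th (Lifr), before the first called gene. The plot of the change against gene order shows Il6r among genes near 0, within a stretch where called genes of both directions are scattered.

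**Figure D2:**
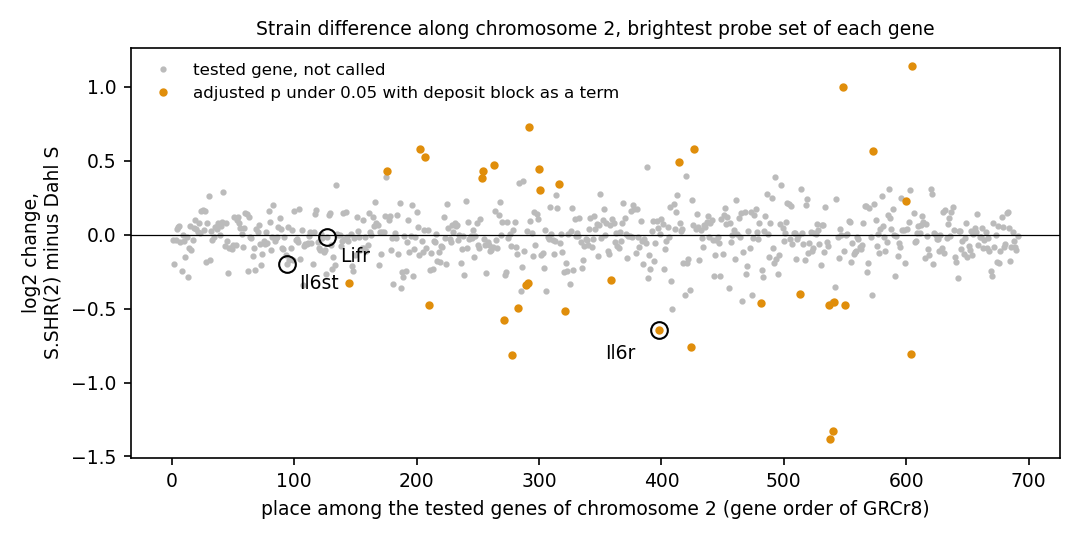
Log2 change, S.SHR(2) minus Dahl S (vertical axis), of the brightest probe set of each of 691 tested genes of chromosome 2, in the gene order of GRCr8 (horizontal axis). Orange points are the 35 genes with an adjusted p under 0.05 with the deposit block as a term, and circles mark Il6st, Lifr and Il6r at places 94, 127 and 398.

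Il6st (gp130) was measured by 4 probe sets. Probe set 1370957_at had 654.3, 836.6 and 1035.2 in S.SHR(2) and 795.1, 904.2 and 1045.4 in Dahl S (lowest, median and highest of 9). Its change was -0.20 ± 0.087, with an unadjusted p of 0.0355 and an adjusted p of 0.9995 by limma. Most of that range was shared: 3 S.SHR(2) rats lay below the lowest Dahl S rat and 1 Dahl S rat above the highest S.SHR(2) rat.

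Probe set 1371926_at of Il6st had 414.1, 484.0 and 535.0 in S.SHR(2) and 444.3, 492.0 and 569.6 in Dahl S, a change of -0.09 ± 0.069. Probe set 1373140_at had 234.2, 331.8 and 471.0 in S.SHR(2) and 216.9, 383.0 and 634.8 in Dahl S, a change of -0.20 ± 0.173. Probe set 1383489_at had 88.2, 124.2 and 254.4 in S.SHR(2) and 103.0, 124.3 and 285.6 in Dahl S, a change of -0.29 ± 0.191. All 4 changes were below 0 and none was called in either fit (adjusted p of 0.9995 each without the block term, 0.423 to 0.667 with it).

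Within blocks, the 4 Il6st probe sets changed by -0.27, -0.02, -0.34 and -0.61 in the first, by -0.01, 0.00, 0.11 and 0.11 in the second, and by -0.31, -0.26, -0.36 and -0.37 in the third, in the order in which they were given above. None of these was called. In the first block the 3 rats of either strain had separate ranges by 1383489_at, 88.2 to 103.3 in S.SHR(2) against 124.2 to 240.3 in Dahl S, where 10.6% of all probe sets had separate ranges. In the third block they had by 1371926_at, 414.1 to 484.0 in S.SHR(2) against 511.6 to 566.4 in Dahl S. There 20.4% of all probe sets had separate ranges. The second block, in which Il6r had its largest change, showed Il6st changes near 0.

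Lifr, the leukaemia inhibitory factor receptor, was measured by 2 probe sets whose changes had opposite signs. Probe set 1395957_at had 47.9, 78.4 and 125.1 in S.SHR(2) and 39.4, 88.5 and 119.6 in Dahl S, a change of -0.01 ± 0.187. Probe set 1369228_at had 38.9, 62.6 and 83.3 in S.SHR(2) and 45.1, 56.1 and 74.9 in Dahl S, a change of 0.14 ± 0.107. Neither was called in either fit, and the strains overlapped by both.

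The kinases overlapped between the strains as well. Jak1 had 812.0, 917.8 and 1192.8 in S.SHR(2) and 831.6, 955.5 and 1298.3 in Dahl S by probe set 1383478_at, a change of -0.10 ± 0.095. By probe set 1384060_at Jak1 had 164.2, 223.4 and 424.1 in S.SHR(2) and 178.0, 220.3 and 467.0 in Dahl S, a change of -0.07 ± 0.189. Jak2 had 28.9, 39.5 and 74.1 in S.SHR(2) and 23.0, 46.0 and 83.8 in Dahl S, a change of -0.11 ± 0.173. None of the 3 probe sets was called in either fit.

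Stat3 was measured by 2 probe sets. By 1370224_at it had 756.8, 836.1 and 1015.0 in S.SHR(2) and 845.2, 943.2 and 1060.3 in Dahl S. Of the S.SHR(2) rats, 5 of 9 lay below the lowest Dahl S rat, and 2 of 9 Dahl S rats lay above the highest S.SHR(2) rat. The change was -0.16 ± 0.068, with an unadjusted p of 0.029 and an adjusted p of 0.9995 by limma (0.380 with the block term), and it was -0.17, -0.14 and -0.16 in the first, the second and the third block. By 1371781_at Stat3 had 195.6, 262.9 and 443.7 in S.SHR(2) and 184.7, 258.2 and 505.2 in Dahl S, a change of -0.07 ± 0.191, with block values of -0.06, 0.07 and -0.21.

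Socs3, the inhibitor that Stat3 itself induces, had 13.6, 31.7 and 46.1 in S.SHR(2) and 13.0, 32.2 and 65.2 in Dahl S. Its change was -0.02 ± 0.174, and the ranges of the strains overlapped in every block. In the second block a single Dahl S rat at 65.2 stood beside 2 at 13.0 and 18.1.

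Over the 13 probe sets, 12 changes were below 0, with a median of -0.098. Of all 18625 probe sets, 9029 (48.5%) were below 0, with a median of 0.004. By block the members' median was -0.215, 0.068 and -0.212, with 11, 4 and 11 of 13 below 0. The probe sets of a gene share its RNA, and the plot of changes shows that only the bar of Il6r stands clear of the others.

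**Figure D3:**
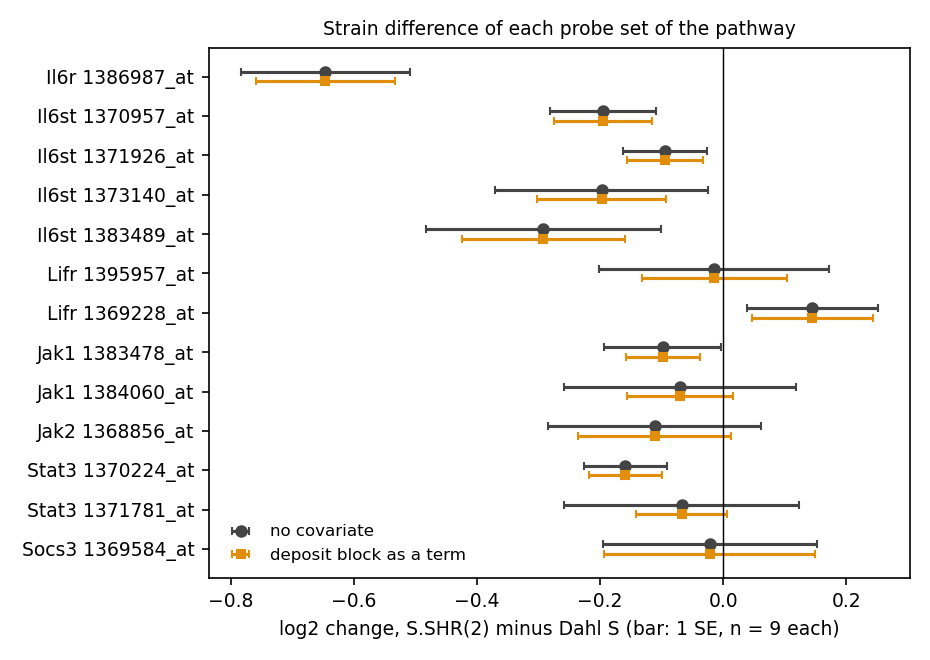
Log2 change, S.SHR(2) minus Dahl S (horizontal axis), of each of the 13 probe sets; points are the fit without a covariate and with the deposit block as a term, and bars are 1 SE (9 rats of each strain). Il6r lies at -0.65, and the other 12 lie between -0.29 and 0.14.

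The blocks differed more than the strains did across the array, and the pathway's probe sets took part in that. Between the third and the first block, 4 of 13 were called in S.SHR(2), all higher in the third, against 30.6% of all probe sets (15.4% higher and 15.1% lower). In Dahl S 5 of 13 were called, 4 higher and 1 lower, against 23.8% of all probe sets (11.5% higher and 12.3% lower). The members' shares of 30.8% and 38.5% were read against these and are not a result about the pathway. The members were picked with block values known, so the differences below are a description.

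Probe sets of 1 gene did not move alike between blocks. Stat3 by 1371781_at averaged 258.5 ± 21.8, 209.7 ± 13.7 and 390.6 ± 46.4 in S.SHR(2) and 271.7 ± 38.5, 199.4 ± 22.8 and 452.6 ± 49.8 in Dahl S in the first, the second and the third block (SD, n = 3 each). That is a log2 difference between the third and the second block of 0.82 ± 0.126 in S.SHR(2) and 1.10 ± 0.126 in Dahl S. Every rat of the third block lay above every rat of the first and the second. How many of all probe sets did so was not counted. Between the third and the second block 18.8% of all probe sets were called in S.SHR(2) and 20.2% in Dahl S.

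The other Stat3 probe set, 1370224_at, averaged 818.0 ± 89.7, 849.0 ± 91.3 and 927.3 ± 89.5 in S.SHR(2) and 911.3 ± 36.6, 936.1 ± 104.6 and 1000 ± 54.4 in Dahl S. Its difference between the third and the second block was 0.11 ± 0.106 in S.SHR(2) and 0.13 ± 0.106 in Dahl S, and the blocks overlapped. So the level of Stat3 mRNA in the third block depends on which probe set is read.

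Jak1 was highest in the third block by both of its probe sets in both strains, by unlike amounts. By 1384060_at it averaged 195.7 ± 33.6, 219.7 ± 3.27 and 373.4 ± 44.0 in S.SHR(2) and 236.2 ± 44.5, 201.6 ± 21.1 and 400.2 ± 59.5 in Dahl S over the 3 blocks, a log2 difference between the third and the first of 0.87 ± 0.144 in S.SHR(2) and 0.72 ± 0.144 in Dahl S. By 1383478_at the difference was 0.20 ± 0.103 in S.SHR(2) and 0.33 ± 0.103 in Dahl S. Between the third and the second block Jak1 differed by 0.70 ± 0.144 in S.SHR(2) and 0.92 ± 0.144 in Dahl S by 1384060_at. By 1383478_at it differed by 0.29 ± 0.103 in S.SHR(2) and 0.49 ± 0.103 in Dahl S. Jak2, with 1 probe set, differed by 0.60 ± 0.219 in S.SHR(2) and 0.59 ± 0.219 in Dahl S.

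Of the Il6st probe sets, 1383489_at differed by 0.76 ± 0.210 in S.SHR(2) and 0.52 ± 0.210 in Dahl S between the third and the first block, and 1373140_at by 0.29 ± 0.171 in S.SHR(2) and 0.31 ± 0.171 in Dahl S. By 1370957_at the difference was 0.01 ± 0.134 in S.SHR(2) and 0.05 ± 0.134 in Dahl S, and by 1371926_at it was -0.06 ± 0.101 in S.SHR(2) and 0.19 ± 0.101 in Dahl S. Of the 4, 1383489_at had the largest difference in both strains. Lifr by 1395957_at was highest in the second block in both strains, with means of 67.7, 113.3 and 60.8 in S.SHR(2) and 90.9, 109.1 and 53.2 in Dahl S over the 3 blocks. By 1369228_at Lifr averaged 66.3, 70.2 and 48.5 in S.SHR(2) and 55.9, 60.5 and 51.3 in Dahl S, lowest in the third block in both. Socs3 averaged 36.1, 31 and 23.4 in S.SHR(2) and 34.5, 32.1 and 33.5 in Dahl S.

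The 3′ to 5′ ratio of beta-actin was lowest in the third block in S.SHR(2), while in Dahl S the third block lay within the range of the first. It was 3.11 to 6.83 in the first, 3.45 to 4.67 in the second and 2.27 to 3.0 in the third block in S.SHR(2), and 2.22 to 3.94, 3.14 to 5.89 and 2.33 to 2.89 in Dahl S. The GAPDH ratio was 1.27 to 2.509, 1.277 to 1.745 and 1.505 to 1.537 in S.SHR(2) over the 3 blocks. In Dahl S it was 1.188 to 1.415, 1.323 to 2.04 and 1.518 to 1.599, so it was not lowest in the third block there. The part of either ratio in the unlike block differences of probe sets of 1 gene was not tested. The plot of block means sets the probe sets of each gene side by side.

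**Figure D4:**
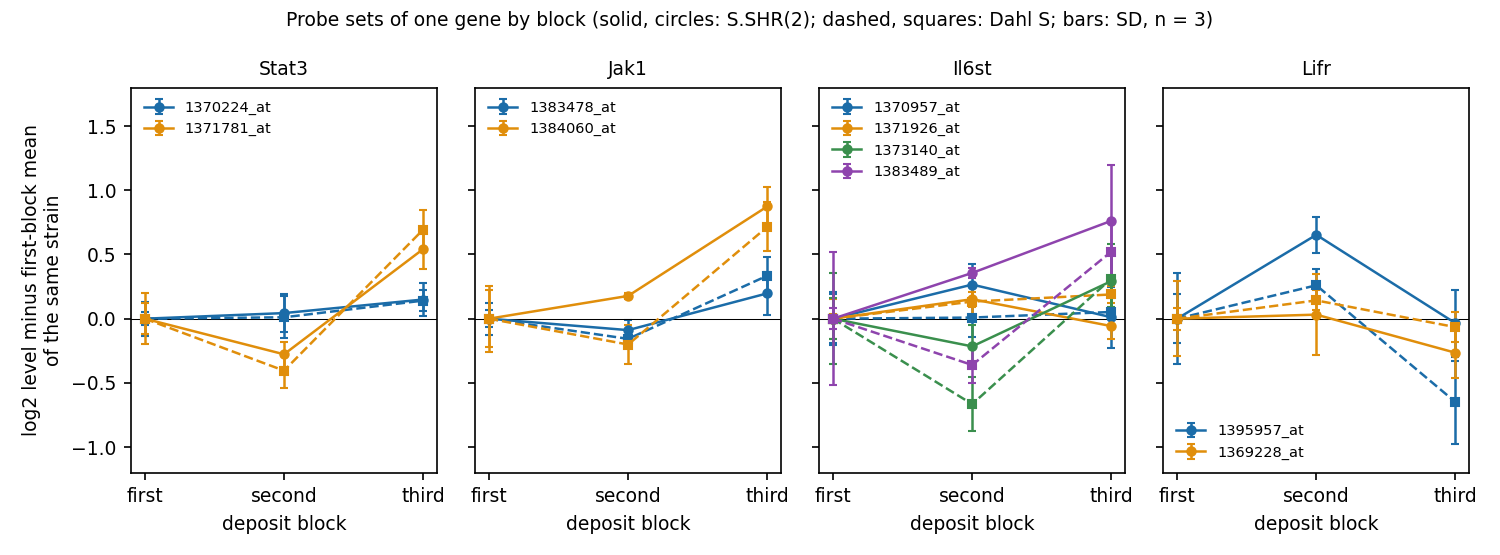
Mean log2 level of each probe set minus its own first-block mean in the same strain (vertical axis), by deposit block (horizontal axis), for Stat3, Jak1, Il6st and Lifr; solid lines are S.SHR(2), dashed lines Dahl S, and bars are the SD of 3 rats. In the third block Stat3 1371781_at stands at 0.54 in S.SHR(2) and 0.69 in Dahl S, and Stat3 1370224_at at 0.15 in S.SHR(2) and 0.14 in Dahl S.

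Rats with more Il6r than their strain's mean tended to have more Stat3 by 1370224_at. Over the 18 rats, centred on strain means, Pearson's r was 0.581 (permutation p = 0.0113, adjusted over 3 pairs 0.0339) and Spearman's rho was 0.616 (permutation p = 0.00756, adjusted 0.0227). Without the 2 rats farthest from the median of Il6r, r was 0.709. Centred on strain and block means, r was 0.45, and no p is given for it. Values centred on strain means alone still hold the block differences. Their permutation p values therefore do not separate variation between rats from differences between blocks. The other Stat3 probe set was not among the 3 pairs. Il6r and Socs3 did not vary together detectably (r = -0.01, permutation p = 0.967, and rho = 0.018), nor did Stat3 and Socs3 (r = -0.154, permutation p = 0.542, and rho = -0.032). The genes most like Il6r over the 18 arrays, among the brightest tested probe sets of 10483 genes, were Eif5a2 (Pearson's r = 0.871), Gstm5 (0.839) and Dclk1 (0.797). All 3 lie on chromosome 2, and their own strain changes were -0.48, -0.48 and -0.58. For Socs3 they were Ccdc17 (0.656), Slc40a1 (0.615) and Atp6v1a (0.613). All arrays share the strain and block differences given above, so these values are a description.

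The ligands were mostly too dim to test. Of 10 cytokines of the family listed, 8 had a probe set and 3 passed the filter, and Il6, Il11, Lif, Osm and Clcf1 did not. Il6 had 1.2, 10.8 and 18.7 in S.SHR(2) and 1.6, 7.0 and 30.8 in Dahl S (lowest, median and highest of 9). None of the 3 tested was called in either fit. Cntf, ciliary neurotrophic factor, had 96.8, 131.1 and 152.5 in S.SHR(2) and 122.9, 153.1 and 210.9 in Dahl S, a change of -0.27 ± 0.101 with an unadjusted p of 0.0144 by limma. Ctf1, cardiotrophin, changed by 0.19 ± 0.154, and Ebi3, a subunit of IL-27, by -0.25 ± 0.139.

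Of 9 further receptors, kinases and STAT factors listed, 7 had a probe set, 5 were tested and none was called (median 0.011). Stat5b, a STAT factor of growth hormone and cytokine receptors, had 32.6, 45.1 and 59.8 in S.SHR(2) and 23.0, 33.8 and 54.1 in Dahl S, a change of 0.33 ± 0.123 with an unadjusted p of 0.0149 by limma. Il11ra1, Stat5a and Jak3 changed by 0.01 ± 0.125, 0.01 ± 0.089 and -0.11 ± 0.171.

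Among the 8 listed inhibitors of the pathway besides Socs3, 6 were tested and Cish was called with the block term. Cish, a SOCS family inhibitor induced chiefly by STAT5, had 133.4, 252.9 and 358.5 in S.SHR(2) and 69.4, 87.2 and 351.5 in Dahl S. The lowest S.SHR(2) rat lay above the Dahl S median, and the highest Dahl S rat lay within the S.SHR(2) range. The change was 1.09 ± 0.235, or 2.12-fold, with an adjusted p of 0.0813 by limma without the block term and 0.00871 with it. Ptprc, the leukocyte phosphatase CD45, changed by -0.30 ± 0.305, and Pias3 and Ptpn6 by 0.15 ± 0.082 and 0.09 ± 0.142.

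Of 26 listed STAT3 targets and acute phase genes, 20 were tested and none was called between the strains in either fit (limma, 0 also at an unadjusted p under 0.05). Of the 20, 5 were above 0 and 15 below, with a median of -0.149, against a median of 0.004 over all probe sets. The smallest p values belonged to Cp, ceruloplasmin, at -0.28 ± 0.140, Hif1a at -0.12 ± 0.076, Fos at -0.73 ± 0.464 and Cebpd at -0.23 ± 0.165. Between the third and the first block 12 of 20 were called in S.SHR(2), 10 higher and 2 lower, against 30.6% of all probe sets. In Dahl S 12 of 20 were called, 11 higher and 1 lower, against 23.8%. The list was chosen with earlier results of these arrays known, and each gene stands by its brightest probe set. These counts are therefore a description. Lcn2, the iron-binding lipocalin released by injured tubules, differed most, by 2.38 ± 0.254 in S.SHR(2) and 3.27 ± 0.254 in Dahl S. It is also counted among the injury genes below. Lbp, which binds lipopolysaccharide, differed by 1.58 ± 0.204 in S.SHR(2) and 1.54 ± 0.204 in Dahl S, and Serpina3n, a protease inhibitor, by 1.19 ± 0.224 in S.SHR(2) and 2.02 ± 0.224 in Dahl S.

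Markers of other cells and of injury were compared in the same way, between strains and between blocks. Of 12 myeloid and lymphoid markers, 11 had a probe set and 7 were tested, all 7 below 0 between the strains (median -0.192) and none called. Their summed intensity was 1813.2 to 2440.4, 3057.0 to 3198.6 and 2945.4 to 4189.8 in S.SHR(2) in the first, the second and the third block, and 2005.9 to 2690.8, 3077.7 to 3459.5 and 3754.5 to 4185.2 in Dahl S. The strains overlapped in each block, and the first block was lowest in both. Of 8 endothelial and stromal markers tested, all 8 were below 0 (median -0.133) and none was called. Their summed intensity was 3522.1 to 5401.4 in S.SHR(2) and 3884.0 to 6317.8 in Dahl S. In the first block alone these sums were separate, 5031.8 to 5401.4 in S.SHR(2) against 5681.7 to 6317.8 in Dahl S. Between the third and the first block the endothelial and stromal markers had a median difference of -0.461 in S.SHR(2) and -0.404 in Dahl S. The myeloid and lymphoid markers went the other way, with medians of 0.823 in S.SHR(2) and 0.694 in Dahl S. Of 7 injury genes tested, 6 were below 0 (median -0.312) and none was called. By block their summed intensity was 3044.2 to 4885.2, 5120.5 to 6020.6 and 8356.2 to 11632.5 in S.SHR(2). In Dahl S it was 4389.6 to 5843.7, 6591.6 to 6987.3 and 12693.7 to 14154.5. These sums, of 3 rats against 3, overlapped between the strains in the first block only. Of single probe sets, 9.27% had separate ranges in the second block and 20.4% in the third, and the share for sums was not counted. The injury genes Spp1, with up to 6753.1 in Dahl S, and Clu, with up to 3230.4, weigh most in the sum. Krt19 went the other way, with a strain change of 0.21 ± 0.132. Havcr1, the tubule injury molecule KIM-1, differed between the third and the first block by 3.11 ± 0.287 in S.SHR(2) and 4.66 ± 0.287 in Dahl S. No listed marker was at 0 on all arrays. The part of these cells or of injury in the strain difference of Il6r was not tested. Nor was their part tested in the block differences of Stat3, Jak1 and Jak2.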

How the data were processed

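Whole-kidney RNA of 9 S.SHR(2) and 9 Dahl S rats was hybridised to 1 Affymetrix array each. Per the labels' protocols, 10 µg of total RNA was labelled as biotinylated cRNA. The authors deposited linear intensities with a trimmed mean of 150.046 to 150.054 on each array, as read from the values. Their scaling and software are not given in the sources used here. None lay below 0, and 39 were at 0.

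From 31099 probe sets, 57 controls were left out. Values were transformed to log2(intensity + 16) and quantile normalised, because array medians spanned 0.235 on the log2 scale, above a limit of 0.2. The dimmest 40% by mean over all arrays (under 5.48) were not tested. Arrays correlated at 0.942 to 0.986. Their number limits the precision, and none was identical to another. Strains were compared with limma 3.58.1 (R 4.3.3), lmFit and eBayes with an intensity trend, without a covariate, with the deposit block as a term, and with 1 mean per strain and block. Adjusted p values cover all probe sets tested. Errors of log2 changes are model standard errors. Replicate numbers name rats in accession order. The strain fits without and with the block term, and the strain contrast within the third block, were tested on simulated data. Of changes of 0.5 on the log2 scale, 45.2%, 76.7% and 20.4% were recovered, in that order. Of changes of 1, 93.8%, 99% and 85.2% were. So a change of 0.5 that was not called may have been missed. Differences between blocks and interactions were not simulated.

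Gene names came from the platform annotation, in which 20826 probe sets have 1 gene, 436 several and 9780 none. Of the 20826, 20758 matched the RefSeq table of GRCr8, which gave chromosomes and gene order. A list gene stands by its brightest probe set. The genes named were every member, list genes called, up to 4 of a list by smallest p and up to 3 by block difference, and the 3 genes most like Il6r and Socs3. The members and lists were chosen with earlier results of these data known. Correlations used 100000 permutations. Planned correlations and likeness for Osmr were not run, since it had no probe set. Alternatives were other pseudocounts, filters, normalisations, eBayes settings, array weights, a stricter threshold, and each rat left out. Chosen after seeing the data were a fit that drops both arrays with the highest GAPDH 3′ to 5′ ratio, a fit that takes the beta-actin ratio as covariate, and the same alternatives with the block term. Plots were made with matplotlib 3.10.9.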

Additional observations from a re-analysis of the deposited data

Results flagged for a closer look

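In 6 of the groups of 9 rats behind the genes named, the highest or lowest rat lay farther from the rest than Dixon's limit allows on the log2 scale. Chance alone flags about 1 in 20 groups, and 116 groups were checked. The only such case among the pathway's own probe sets was Il6st by 1383489_at, where S.SHR(2) replicate 9 had 254.4, with the next S.SHR(2) rat at 139.8 and the lowest at 88.2. Ebi3 was lowest in Dahl S replicate 6, at 24.0 with the next at 37.7. Atp6v1b1, an intercalated cell gene, was highest in Dahl S replicate 1, at 163.3 with the next at 105. Cd4 was lowest in S.SHR(2) replicate 2, at 5.3 with the next at 32.2. S.SHR(2) replicate 8 was highest for the injury genes Vim, at 1094.9 with the next at 709.5, and Krt19, at 319.3 with the next at 198.5. Without S.SHR(2) replicate 9, 2 probe sets of the pathway were called between the third and the first block in S.SHR(2), against 4 with it.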

How the results depend on the processing

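Over all rats Il6r stayed below 0 in every alternative run, between -0.86 (pseudocount 1) and -0.37 (pseudocount 64). Without the block term it passed the threshold on values as deposited (-0.69, adjusted p = 0.0214), with array weights (-0.71, 0.0111), without Dahl S replicate 1 (-0.71, 0.0331) and without S.SHR(2) replicate 8 (-0.69, 0.0476), and over all 18 fits that leave out 1 rat its adjusted p was 0.0331 to 0.172. With the block term it was called in 18 of 18 such fits (adjusted p 0.000467 to 0.0139). Cish with the block term was called in 18 of 18 too (0.979 to 1.279, adjusted p 2.85e-05 to 0.0259). The count of members called was 1, against 0, on values as deposited, with array weights and with the block term, and 0 to 1 with 1 rat left out. Within blocks it was 1 in the third on values as deposited, and 1 in the second and 5 in the third with array weights. Between the third and the first block it was 2 to 4 with 1 rat left out in S.SHR(2), lowest without S.SHR(2) replicate 9, and 3 to 6 in Dahl S, lowest without Dahl S replicate 2, 7 or 9. Over all probe sets the count was 41 with array weights (13 higher, 28 lower) and 92 with the block term, against 23. Uncalled changes near 0 turned sign: Socs3 with a pseudocount of 1 (0.003), Lifr 1395957_at with array weights (0.051) and without the 2 arrays of highest GAPDH ratio (0.049), and Jak1 1384060_at (0.051) and Stat3 1371781_at (0.021) when the beta-actin ratio was a covariate. With 1 rat left out, they ran from -0.126 to 0.062 for Lifr 1395957_at, -0.157 to 0.024 for Jak1 1384060_at, -0.146 to 0.026 for Stat3 1371781_at and -0.115 to 0.039 for Socs3. The cause of these moves was not tested. With 60% of probe sets left out, Il6r, Jak2, Socs3 and Lifr 1369228_at had no value. No paired analysis was possible because the replicate numbers only name rats in accession order. Dim probe sets such as Socs3 and Il6 are limited by signal over background, which the deposited values do not give.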
